A study of Homo sapiens with 6 samples.

Results

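Collagens, laminins and fibronectin are the main proteins of the extracellular matrix, and integrins are the receptors that bind cells to it. The group taken here was every protein-coding row of the deposited table whose symbol names a collagen chain, a laminin subunit or an integrin subunit, with FN1 added. It held 79 of 32896 genes, of which 39 were collagens, 12 laminins and 27 integrin genes, with fibronectin as the remaining gene. The rule used symbols and gene type, and no measured value. Only genes with a row could enter, and the authors' table is named as one of expressed genes. The collagen chain genes COL4A3, COL4A4, COL9A1, COL19A1 and COL20A1 had no row under these criteria.

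The libraries came from BHT101 cells, an established cell line from an anaplastic thyroid carcinoma, and were made 48 h after plasmid transfection with a lipid reagent. There were 3 libraries from cells given a plasmid that overexpresses SK4, and 3 from cells given a control plasmid. SK4 is the calcium-activated potassium channel encoded by KCNN4. All 6 libraries share the cell line and the transfection, the share of cells that took up plasmid was not stated in the sources used here, and BHT102 stands in place of BHT101 in 1 label, the treatment of control replicate 3. Nothing says that replicates were separate cultures, so p-values cover the spread among these libraries alone, and that spread may be technical. In a bulk library, fewer cells of a type and less RNA per cell cannot be told apart.

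Matrix and receptor genes work as sets. Collagen chains assemble into trimers, a laminin is a trimer of an alpha, a beta and a gamma subunit, and an integrin is a dimer of an alpha and a beta subunit, so a protein needs every one of its chains. Type IV collagen and laminins build the basement membrane under epithelia, including the thyroid follicle, while fibrillar collagens are mostly made by fibroblasts. Integrin beta-1 dimers and the alpha-6 beta-4 dimer anchor epithelial cells to laminin, and alpha-5 and alpha-V dimers bind the RGD tripeptide of fibronectin and other ligands.

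Levels are deposited FPKM (fragments counted per gene, scaled to the length of the gene and to the depth of the library), and the libraries held an estimated 29700000 to 38500000 fragments, with control replicate 3 the shallowest. KCNN4 stood at 184, 148 and 169 FPKM in SK4 replicates 1 to 3, against 8.31, 8.26 and 8.52 FPKM in control replicates 1 to 3 (fold 18.8, limma adjusted p = 8.83e-07; exact two-sided permutation p = 0.1, the smallest that 3 against 3 allows). It was the only gene called, at an adjusted p below 0.05, among the 11139 with at least 1 FPKM in at least 3 libraries. The 6 epithelial markers were all above 1 FPKM, with summed levels of 595 to 648 FPKM in SK4 and 577 to 626 FPKM in control libraries. Of the 8 thyroid follicular markers none reached 1 FPKM and 7 were below 0.1 FPKM, among them TG and TSHR, and their sum was 0.51 to 0.56 FPKM in SK4 and 0.47 to 0.63 FPKM in control libraries. The leukocyte marker PTPRC did not exceed 0.01 FPKM, and 4 of the 5 endothelial markers were below 0.1 FPKM. Fibroblast markers summed to 26.3 to 35.5 FPKM in SK4 and 25.4 to 30.7 FPKM in control libraries, with 3 of the 8 at 1 FPKM or more. These were LUM, a matrix proteoglycan that made up most of the sum, PDGFRA at 2.01 FPKM in SK4 and 2.15 FPKM in control libraries, and ACTA2 at 1.23 FPKM in SK4 and 1.06 FPKM in control libraries. THY1, FAP and POSTN were at or near 0.

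**Figure D1:**
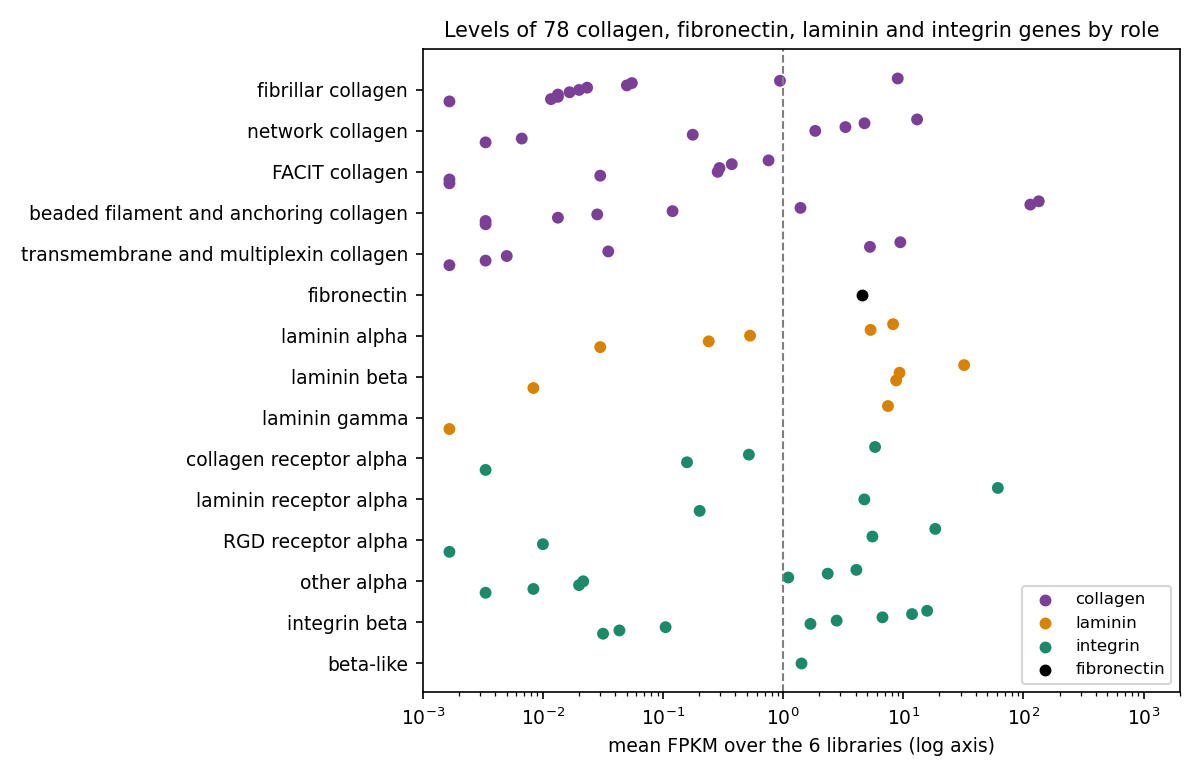
Mean level over the 6 libraries (x axis, FPKM, log axis) of 78 of the 79 genes, arranged by role (y axis) and coloured by family; the vertical offset within a role only separates points. The dashed line marks 1 FPKM: 32 genes had enough libraries at or above it to be tested, and 34 of the other 47 averaged below 0.1 FPKM.

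Expression was concentrated in few genes. Of the 79, 32 passed the filter on low values, 10 of them collagens, 7 laminins, 14 integrin genes and FN1. Another 13 averaged 0.1 to 1 FPKM and 34 averaged below 0.1 FPKM, of which 23 were listed at 0 in at least 1 library (a value below 0.005 FPKM before rounding). COL6A1 and COL6A2 together made up 82.9% of the summed FPKM of the 39 collagens. The filter lies between ITGAM, which held 1.02 to 1.26 FPKM, and COL27A1, which held 0.81 to 1.00 FPKM. The summed level of all 79 genes was 578, 575 and 544 FPKM in SK4 replicates 1 to 3, against 578, 542 and 535 FPKM in control replicates 1 to 3, so the groups overlapped.

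No member passed the test between the plasmids. Of the 32 tested genes, 0 were called at an adjusted p below 0.05, where 0.00898% of all tested genes were called (limma, adjusted p = 0.99997 for each of the 32). At an unadjusted p below 0.05 there were 0 as well, against 1.65% of all tested genes. For none of the 32 did the SK4 values lie entirely above or entirely below the control values, against 5.34% of all tested genes. The members had a median log2 fold change of 0.0088, and all tested genes 0.011. Single log2 fold changes ran between -0.19 for FN1 and 0.11 for LAMB3, with 19 positive and 13 negative. All 32 members had a 95% confidence interval that excluded folds beyond 1.5 in either direction, as did 96.8% of all tested genes. For 22 of the 32 the interval also excluded folds beyond 1.2 on that scale, against 57.7% of all tested genes. The other 10 were FN1 and the integrin genes ITGA2, ITGA6, ITGAV, ITGAX, ITGAM, ITGB1, ITGB2, ITGB3 and ITGBL1. By family the median log2 fold change was 0.030 over 10 collagens, 0.0067 over 7 laminins and 0.0076 over 14 integrin genes. A p-value that misses the threshold does not show equal levels, and the intervals give the sizes that remain possible.

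**Figure D2:**
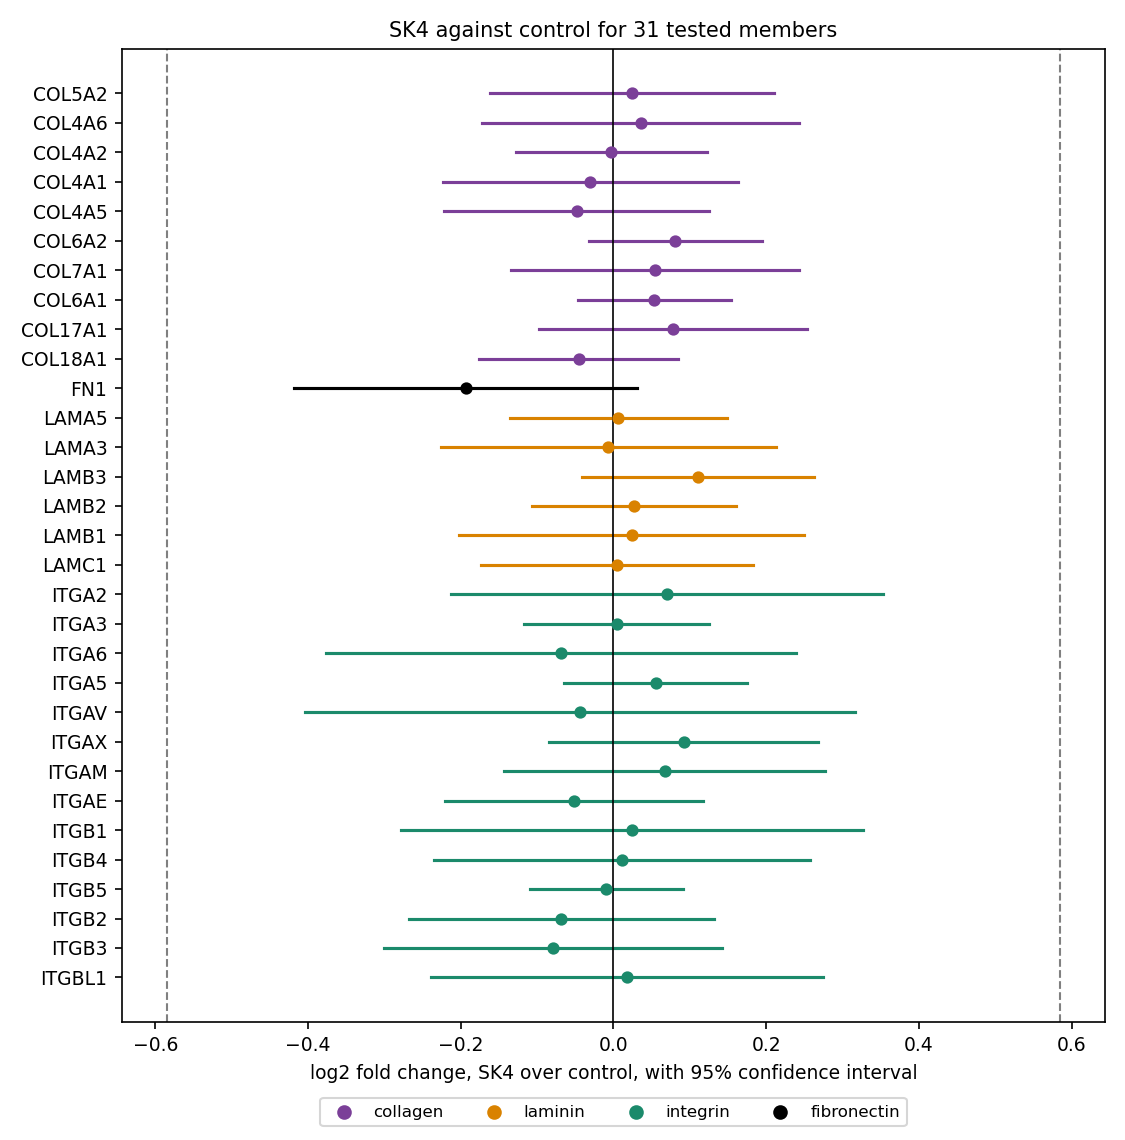
Log2 fold change of SK4 over control (x axis, on log2(FPKM + 0.5)) with its 95% confidence interval for 31 of the 32 tested members (y axis, ordered by role, coloured by family; n = 3 libraries a group). Every interval crosses 0 and lies between the dashed lines, which mark 1.5-fold in either direction; FN1 has the largest change in size, at -0.19.

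Type VI collagen gave the 2 highest levels. Its protein forms beaded microfilaments next to basement membranes and is built from an alpha-1, an alpha-2 and, most often, an alpha-3 chain. COL6A1, the alpha-1 chain gene, held 139, 141 and 129.9 FPKM in SK4 replicates 1 to 3, against 136, 127 and 132 FPKM in control replicates 1 to 3. COL6A2, the alpha-2 chain gene, held 119, 121 and 111 FPKM in SK4 and 116, 106 and 110.3 FPKM in control replicates 1 to 3. For both genes SK4 replicate 2 was the highest library and control replicate 2 the lowest, and the groups overlapped. The mean of COL6A1 was 136.6 ± 5.95 FPKM in SK4 and 131.6 ± 4.30 FPKM in control libraries, and that of COL6A2 117.3 ± 5.17 and 110.9 ± 5.27 FPKM in the same order (SD, n = 3 each). The folds were 1.04 (95% confidence interval 0.968 to 1.11) for COL6A1 and 1.06 (0.978 to 1.14) for COL6A2 (limma, adjusted p = 0.99997 for both). The 2 genes lie in tandem on the plus strand of chromosome 21, COL6A1 at 45981737 to 46005050 and COL6A2 at 46098097 to 46132849 in GRCh38, 93046 bp apart. Their ratio hardly varied, with COL6A1 over COL6A2 at 1.163 to 1.165 in SK4 and 1.164 to 1.199 in control libraries, and the groups overlapped. Among the 32 members the pattern most like that of COL6A1 over the 6 libraries was that of COL6A2 (Pearson r = 0.977 of log2 levels, n = 6 libraries), then ITGAX (0.856) and ITGA3 (0.843), as a description of genes measured in the same libraries.

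The other chains that can complete a type VI trimer were nearly absent. COL6A3 held 0.01, 0.02 and 0.01 FPKM in SK4 replicates 1 to 3, against 0.01, 0.02 and 0.01 FPKM in control replicates 1 to 3. COL6A5 and COL6A6, genes of chains that can take the place of alpha-3, did not exceed 0.01 FPKM in any library. COL6A3 lies apart from the other 2 genes, at 237324003 to 237414375 on chromosome 2 (minus strand). Because the genes of one trimer stood so far apart in level, the 250 bases before the RefSeq start of COL6A2 (chr21:46097862-46098111, plus strand, GRCh38.p14) and COL6A3 (chr2:237414165-237414414, minus strand) are shown. Capitals mark exact matches, on either strand, to the GC box GGGCGG, the CCAAT box, the TATA box TATAAA and the AP-1 site TGAGTCA.
COL6A2: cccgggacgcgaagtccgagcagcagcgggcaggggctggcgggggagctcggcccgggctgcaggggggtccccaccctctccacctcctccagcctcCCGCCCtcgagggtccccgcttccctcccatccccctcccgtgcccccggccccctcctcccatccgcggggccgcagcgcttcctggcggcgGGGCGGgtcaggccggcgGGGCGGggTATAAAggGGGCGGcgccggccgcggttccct
COL6A3: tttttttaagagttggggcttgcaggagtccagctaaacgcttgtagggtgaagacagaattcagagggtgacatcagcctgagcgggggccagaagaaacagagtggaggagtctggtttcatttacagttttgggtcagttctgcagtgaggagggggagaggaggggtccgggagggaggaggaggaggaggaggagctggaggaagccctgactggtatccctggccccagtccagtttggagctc
The COL6A2 window held 4 GC boxes and 1 TATA box, and the COL6A3 window held none of the 4 motifs, which says only that these letters are not in it. Most of the COL6A3 window lies inside the GENCODE span of that gene, whose minus-strand start is at 237414375. It is therefore largely not upstream of that start. No match overlapped another. Of 35116 RefSeq promoter windows of this length, 42.6% held a GC box, 32.01% a CCAAT box, 10.7% a TATA box and 4.20% an AP-1 site. RefSeq windows were found for 56 of the 79 genes, COL6A1 not among them.

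Of the fibrillar collagens, which form the banded fibres of connective tissue, only COL5A2 was tested. It held 9.73, 8.57 and 8.88 FPKM in SK4 replicates 1 to 3, against 9.68, 8.98 and 8.07 FPKM in control replicates 1 to 3, with overlapping groups. COL5A1, whose alpha-1 chain is the usual partner of the alpha-2 chain in type V trimers, held 0.04 FPKM in each SK4 library and 0.06, 0.07 and 0.05 FPKM in control replicates 1 to 3. These COL5A1 levels rest on an estimated 12 fragments in the lowest library. The type I genes COL1A1 and COL1A2 did not exceed 0.08 FPKM, and COL3A1 did not exceed 0.05 FPKM. COL3A1 and COL5A2 are neighbours on chromosome 2, 19149 bp apart on opposite strands. Of the 11 fibrillar collagens, 9 averaged below 0.1 FPKM.

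Type IV collagen, the network of the basement membrane, was present through 4 of its chain genes. COL4A2 held 13.5, 13.2 and 12.3 FPKM in SK4 replicates 1 to 3, against 13.4, 13.1 and 12.5 FPKM in control replicates 1 to 3. COL4A1 held 5.04, 4.54 and 4.50 FPKM in SK4 and 4.91, 5.2 and 4.32 FPKM in control replicates 1 to 3. Both genes overlapped between the groups, and both had a fold near 1, of 0.998 (0.916 to 1.09) for COL4A2 and 0.979 (0.856 to 1.12) for COL4A1. COL4A6 held 3.48, 3.19 and 3.35 FPKM in SK4 and 3.64, 3.24 and 2.89 FPKM in control replicates 1 to 3. COL4A5, its neighbour 346 bp away on the X chromosome, held 1.83, 1.79 and 1.81 FPKM in SK4 and 2.00, 1.87 and 1.80 FPKM in control replicates 1 to 3. Both overlapped between the groups.

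COL4A1 and COL4A2 are transcribed away from each other from a shared stretch on chromosome 13, a well-known bidirectional promoter. In the RefSeq annotation 126 bases separate the starts (chr13:110307158-110307283, GRCh38.p14), and they are shown on the plus strand, that of COL4A2, because both genes start from this sequence while their levels differ.
COL4A1-COL4A2: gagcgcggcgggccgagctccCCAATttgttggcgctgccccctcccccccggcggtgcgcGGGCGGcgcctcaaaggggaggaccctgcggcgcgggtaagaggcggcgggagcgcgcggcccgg
Capitals mark 1 CCAAT box and 1 GC box. In GENCODE the spans of the genes overlap, with COL4A1 reaching to 110307233 and COL4A2 beginning at 110305812. The stretch shown therefore lies inside the GENCODE span of COL4A2 and partly inside that of COL4A1. In the last 126 bases before the start, 21.1% of RefSeq windows held a CCAAT box and 34.6% a GC box. COL4A1 over COL4A2 was 0.374, 0.343 and 0.365 in SK4 replicates 1 to 3, against 0.366, 0.396 and 0.345 in control replicates 1 to 3, so COL4A2 was the higher gene in every library. Type IV protomers most often hold more alpha-1 than alpha-2 chains, and a ratio of FPKM between genes rests on the gene lengths that the authors used, which the sources used here do not state.

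The remaining tested collagens belong to the epithelial junction with the matrix. COL18A1, which gives rise to endostatin, held 9.44, 9.27 and 9.13 FPKM in SK4 replicates 1 to 3, against 10.1, 9.01 and 9.74 FPKM in control replicates 1 to 3. Its exons share 16.4% of their length with SLC19A1 on the opposite strand, which held 5.56 FPKM in SK4 and 5.59 FPKM in control libraries, and whether the authors counted by strand was not stated in the sources used here. COL17A1, a transmembrane collagen of hemidesmosomes, held 5.83, 5.24 and 5.22 FPKM in SK4 and 5.40, 5.27 and 4.69 FPKM in control replicates 1 to 3. COL7A1, the gene of anchoring fibrils, held 1.49, 1.48 and 1.32 FPKM in SK4 and 1.36, 1.39 and 1.32 FPKM in control replicates 1 to 3. All 3 genes had overlapping groups. None of the 7 fibril-associated (FACIT) collagens with a row passed the filter, the highest being COL9A2 at 0.68 to 0.82 FPKM.

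Fibronectin had the largest fold change of the 32 genes and the smallest p, without passing. FN1, which encodes the adhesive glycoprotein bound by alpha-5 beta-1, held 4.01, 4.30 and 4.27 FPKM in SK4 replicates 1 to 3, against 5.29, 4.15 and 5.23 FPKM in control replicates 1 to 3. The SK4 libraries lay close together, while control replicate 2 lay among them and the other 2 control libraries about 1 FPKM higher. Its mean was 4.19 ± 0.160 FPKM in SK4 and 4.89 ± 0.642 FPKM in control libraries (SD, n = 3 each; fold 0.875, 95% confidence interval 0.749 to 1.02; limma, unadjusted p = 0.0820, adjusted p = 0.99997). Without control replicate 2 the log2 fold change was -0.30 in place of -0.19 (limma, unadjusted p = 0.00527, adjusted p = 0.99995), and over all alternatives it ran from -0.30 to -0.14. Leaving out any other single library gave an unadjusted p of 0.1145 to 0.2397 (limma). A correction for GC content gave an unadjusted p of 0.190 (limma). FN1 spans 215360440 to 215436172 on chromosome 2 (minus strand). Its pattern over the 6 libraries was most like those of COL18A1 (r = 0.849), ITGB2 (0.651) and ITGB3 (0.571), each over n = 6.

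LAMB3 and LAMA3 encode chains of the laminin of hemidesmosomes. LAMB3, the beta-3 gene, held 34.0, 33.8 and 31.98 FPKM in SK4 replicates 1 to 3, against 33.2, 31.3 and 28.1 FPKM in control replicates 1 to 3. LAMA3, the alpha-3 gene, was lower, at 5.71, 5.03 and 5.22 FPKM in SK4 and 5.92, 5.51 and 4.66 FPKM in control replicates 1 to 3. For both genes control replicate 3 was the lowest library, and the groups overlapped. LAMB3 had the highest log2 fold change of the members, 0.11 (fold 1.08, 95% confidence interval 0.972 to 1.2; limma, unadjusted p = 0.129, adjusted p = 0.99997). Without control replicate 1 it was 0.17 (unadjusted p = 0.0356, adjusted p = 0.99957), and without control replicate 3 and SK4 replicate 2 it was 0.034.

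Partner chains were also set against each other within a library, in 12 ratios given without a test, some of which share genes. For each of the 12 the groups overlapped. LAMA3 over LAMB3 was 0.168, 0.149 and 0.163 in SK4 and 0.178, 0.176 and 0.166 in control replicates 1 to 3. Like every ratio between genes, it rests on the gene lengths that the authors used, which the sources used here do not state. The longest GENCODE transcript has 10661 nt for LAMA3 and 4305 nt for LAMB3, and LAMA3 also has shorter transcripts. How much of the difference in level comes from the length used was not tested. LAMB3 lies at 209614870 to 209652466 on chromosome 1 (minus strand). LAMA3 spans 23689443 to 23956222 on the plus strand of chromosome 18. The RefSeq window of LAMA3 (chr18:23872770-23873019, plus strand) lies inside that gene, at the start of its shorter transcripts. It is shown with the window of LAMB3 (chr1:209652426-209652675, minus strand), since these genes encode chains of 1 trimer at different levels, and the capitals mark the same 4 motifs.
LAMA3: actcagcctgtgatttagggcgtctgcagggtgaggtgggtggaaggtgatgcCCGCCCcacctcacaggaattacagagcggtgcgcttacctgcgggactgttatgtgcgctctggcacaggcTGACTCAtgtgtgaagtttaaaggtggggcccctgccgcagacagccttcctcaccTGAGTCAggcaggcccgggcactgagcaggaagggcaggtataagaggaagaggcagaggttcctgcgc
LAMB3: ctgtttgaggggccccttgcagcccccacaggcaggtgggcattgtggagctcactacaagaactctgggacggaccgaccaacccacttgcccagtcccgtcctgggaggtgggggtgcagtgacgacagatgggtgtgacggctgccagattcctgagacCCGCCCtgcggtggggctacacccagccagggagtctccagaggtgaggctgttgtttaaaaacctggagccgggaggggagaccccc
The LAMA3 window held 2 AP-1 sites and 1 GC box, and the LAMB3 window held 1 GC box. AP-1 is the transcription factor family of FOS and JUN, and 4.20% of all windows held its site.

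The laminins of ordinary basement membrane lay below LAMB3 and close together. LAMB1, the beta-1 gene, held 9.89, 8.64 and 9.57 FPKM in SK4 replicates 1 to 3, against 9.95, 9.84 and 7.92 FPKM in control replicates 1 to 3. LAMB2, the beta-2 gene, held 9.31, 8.83 and 8.30 FPKM in SK4 and 8.75, 8.71 and 8.44 FPKM in control replicates 1 to 3. LAMA5, the alpha-5 gene, held 8.66, 8.36 and 7.70 FPKM in SK4 and 8.52, 8.05 and 8.01 FPKM in control replicates 1 to 3. Its exons share 1.71% of their length with ADRM1 on the opposite strand, which held 109.1 FPKM in SK4 and 109.2 FPKM in control libraries. LAMC1, the gamma-1 gene shared by most laminins, held 8.13, 7.07 and 7.20 FPKM in SK4 and 7.79, 7.69 and 6.84 FPKM in control replicates 1 to 3. For each of the 4 the groups overlapped. The range of LAMC1 over the 6 libraries lay below that of LAMB2, and every other pair of these genes overlapped in range. LAMB1 over LAMC1 was 1.16 to 1.33 and LAMA5 over LAMC1 1.05 to 1.18 across the 6 libraries. The other alpha genes were low, with LAMA4 at 0.42 to 0.59 FPKM, LAMA2 at 0.18 to 0.27 FPKM and LAMA1 at 0.02 to 0.04 FPKM, and LAMC3 and LAMB4 did not exceed 0.04 FPKM.

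**Figure D3:**
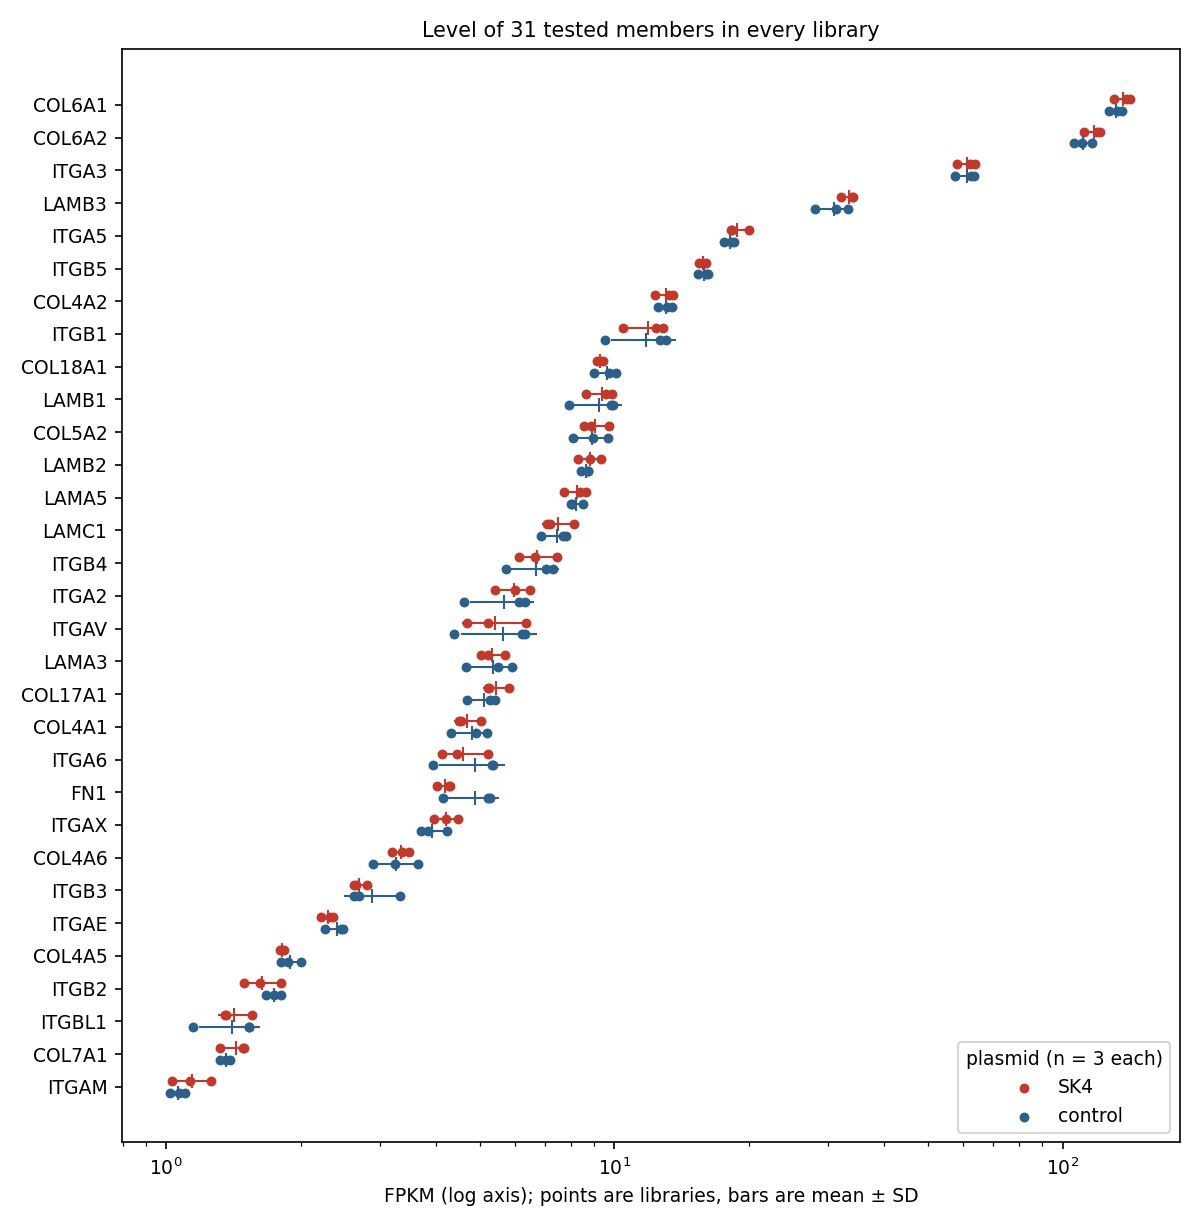
FPKM of 31 of the 32 tested members (y axis, ordered by mean level) in every library (x axis, log axis); red points are SK4 and blue points control libraries, with mean ± SD bars (n = 3 each). The red and blue points overlap for every gene, and ITGAV, ITGB1, ITGA6 and ITGA2 spread more widely than genes of like level such as LAMB2.

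The laminin receptor gene ITGA3 was the highest integrin. It encodes the alpha-3 subunit, and held 61.99, 63.6 and 58.2 FPKM in SK4 replicates 1 to 3, against 63.4, 57.5 and 62.5 FPKM in control replicates 1 to 3 (fold 1.00, 95% confidence interval 0.922 to 1.09). The library order differed between the groups, with replicate 2 highest in SK4 and lowest in control. ITGB1, whose beta-1 subunit is the only known partner of alpha-3, held 12.9, 10.4 and 12.4 FPKM in SK4 and 13.1, 12.7 and 9.52 FPKM in control replicates 1 to 3. ITGA3 over ITGB1 was therefore 4.82, 6.10 and 4.71 in SK4 and 4.85, 4.54 and 6.57 in control replicates 1 to 3. ITGB1 also pairs with many other alpha subunits, and its level was set against ITGA5, ITGA2 and ITGAV as well. ITGA5, the fibronectin receptor alpha, held 18.3, 19.96 and 18.2 FPKM in SK4 and 18.2, 17.5 and 18.5 FPKM in control replicates 1 to 3, and ITGA5 over ITGB1 ranged from 1.39 to 1.94. ITGA2, a collagen receptor alpha, held 6.47, 5.41 and 5.99 FPKM in SK4 and 6.31, 6.12 and 4.62 FPKM in control replicates 1 to 3, and its ratio to ITGB1 stayed within 0.483 to 0.518. Of the other collagen receptor alphas, ITGA1 held 0.40 to 0.65 FPKM, ITGA10 0.11 to 0.18 FPKM and ITGA11 at most 0.01 FPKM. In GENCODE, ITGA1 shares 475 bp of exon with PELO on the same strand, so its low level is uncertain. PELO held 13.64 FPKM in SK4 and 13.34 FPKM in control libraries. How much of the ITGA1 level comes from PELO fragments was not tested.

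The hemidesmosome integrin alpha-6 beta-4 was present through both subunits. ITGA6 held 5.23, 4.12 and 4.46 FPKM in SK4 replicates 1 to 3, against 5.36, 5.33 and 3.93 FPKM in control replicates 1 to 3. ITGB4 held 6.64, 7.43 and 6.11 FPKM in SK4 and 7.29, 5.73 and 7.04 FPKM in control replicates 1 to 3. ITGA6 was low and ITGB4 high in SK4 replicate 2, where their ratio was 0.555. Control replicate 3, the lowest library for ITGA6, gave a like ratio of 0.558. Over the 6 libraries the ratio ran from 0.555 to 0.930 and varied most of the 12 chain ratios, by 1.68 times. The groups overlapped for both genes.

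Besides ITGA5, the RGD-binding integrins included ITGB5, the beta-5 gene and the steadiest of the 32 tested members, at 15.5, 16.01 and 15.7 FPKM in SK4 replicates 1 to 3, against 16.2, 16.01 and 15.4 FPKM in control replicates 1 to 3. Its highest library was 1.05 times its lowest. ITGAV, whose alpha-V subunit pairs with beta-5, was the least steady of the 32 at 1.45 times, holding 6.36, 4.70 and 5.22 FPKM in SK4 and 6.31, 6.21 and 4.39 FPKM in control replicates 1 to 3. ITGB3, another partner of alpha-V, held 2.65, 2.80 and 2.62 FPKM in SK4 and 3.33, 2.69 and 2.63 FPKM in control replicates 1 to 3, with control replicate 1 the highest. In GENCODE, 51.6% of the ITGB3 exon length is shared with an overlapping protein-coding gene model on the same strand, so the ITGB3 counts are uncertain. That gene model was listed at 0.133 FPKM in SK4 and 0.12 FPKM in control libraries. The further partners ITGB6 and ITGB8 held at most 0.07 FPKM, and ITGA2B and ITGA8 at most 0.03 FPKM. Of 4 platelet and megakaryocyte markers, listed because platelets carry alpha-IIb beta-3, 1 was above 1 FPKM and the other 3 were below 0.1 FPKM, with sums of 3.42 to 4.21 FPKM in SK4 and 3.28 to 4.25 FPKM in control libraries.

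Integrins named for leukocytes were also measured. ITGAX, the CD11c gene, held 4.48, 4.21 and 3.95 FPKM in SK4 replicates 1 to 3, against 4.23, 3.71 and 3.83 FPKM in control replicates 1 to 3. ITGB2, the beta-2 gene with which it pairs, held 1.49, 1.62 and 1.80 FPKM in SK4 and 1.80, 1.67 and 1.74 FPKM in control replicates 1 to 3. ITGB2-AS1 on the opposite strand shares 4.46% of the ITGB2 exon length and held 2.96 FPKM in SK4 and 3.03 FPKM in control libraries. ITGAM, the CD11b gene, held 1.13, 1.03 and 1.26 FPKM in SK4 and 1.10, 1.07 and 1.02 FPKM in control replicates 1 to 3. In each of the 3 genes the groups overlapped, and the pan-leukocyte marker PTPRC was at or below 0.01 FPKM in every library. Of 5 leukocyte markers 1 was above 1 FPKM, CD14, and their sum was 3.85 to 4.65 FPKM in SK4 and 4.03 to 4.73 FPKM in control libraries. ITGAD, 10314 bp from ITGAX on chromosome 16, and ITGAL did not exceed 0.01 and 0.03 FPKM. ITGAE, the alpha-E gene, held 2.22, 2.32 and 2.35 FPKM in SK4 and 2.26, 2.46 and 2.48 FPKM in control replicates 1 to 3. ITGB7, its beta partner, was below the filter at 0.12, 0.13 and 0.16 FPKM in SK4 and 0.08, 0.06 and 0.08 FPKM in control replicates 1 to 3. These ITGB7 values did not overlap, but they rest on an estimated 7 fragments in the lowest library. Of the ITGB7 exon length, 42.1% is shared with ZNF740 on the opposite strand, which held 2.79 FPKM in SK4 and 2.97 FPKM in control libraries. With no filter the log2 fold change of ITGB7 was 0.15 (limma, adjusted p = 0.973). Of the 47 members below the filter, 1 (ITGB7) had its lowest SK4 value above its highest control value, against 2.23% of the 21757 genes below the filter. The reverse held for 2 (COL5A1 and COL14A1), against 1.93% of those genes, and for both directions together the share was 4.15%. ITGBL1, a beta-like protein that is no integrin subunit, held 1.35 to 1.55 FPKM in SK4 and 1.15 to 1.53 FPKM in control libraries. FGF14 on the opposite strand shares 70.5% of the ITGBL1 exon length, so the ITGBL1 counts are uncertain. The level of FGF14 itself was low, at 0.0567 FPKM in SK4 and 0.0767 FPKM in control libraries.

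**Figure D4:**
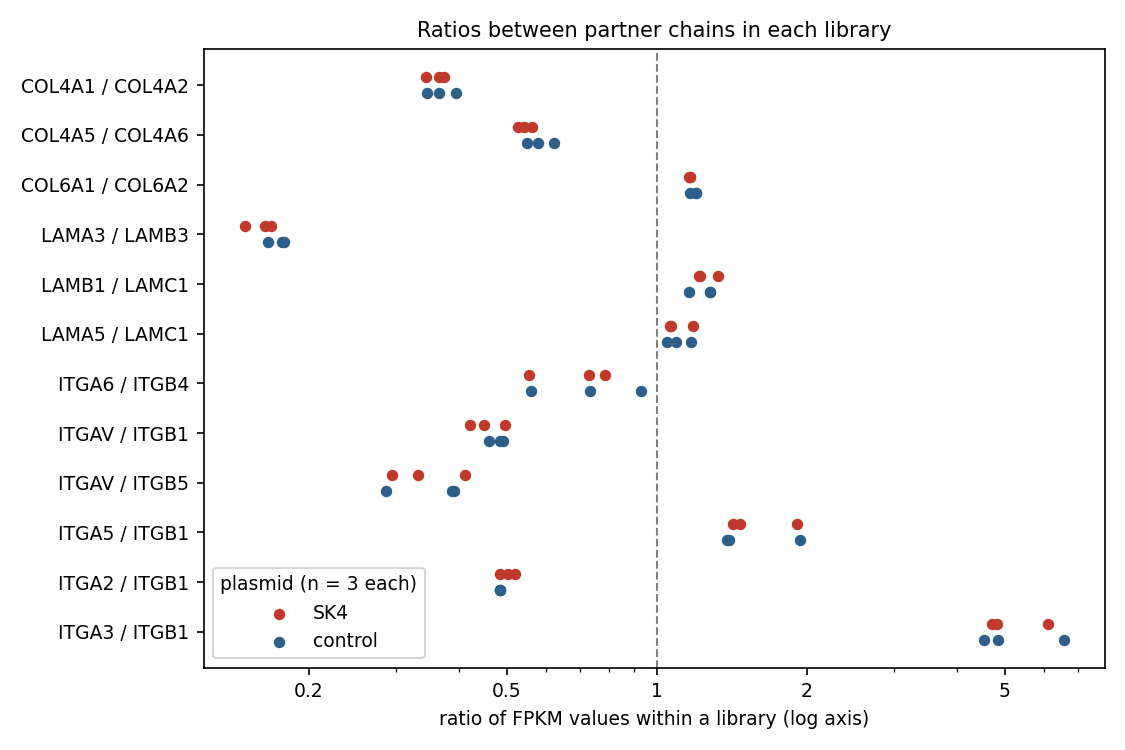
Ratio of FPKM between partner chains (y axis) within each library (x axis, log axis); red points are SK4 and blue points control libraries (n = 3 each). The red and blue points overlap in range for each of the 12 ratios, and ITGA6 over ITGB4 has the widest range (0.555 to 0.930).

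A pair of libraries, 1 from each plasmid, deviated from their groups in a like pattern over genes (Pearson r = 0.528 across 11139 tested genes). Their median levels did not both stand apart. The median log2 deviation of the 32 members from the 6-library mean was -0.070 in control replicate 3. In SK4 replicate 2 it was -0.019, between SK4 replicates 1 (0.071) and 3 (-0.036). SK4 replicate 2 and control replicate 3 were set against the other 4 libraries, a split that was chosen after the values were seen. The log2 difference was negative for 23 of the 32 members and 7388 of the 11139 tested genes, with medians of -0.046 and -0.063. It was -0.37 for ITGAV, -0.34 for ITGB1, -0.30 for ITGA6, -0.29 for ITGA2 and -0.23 for LAMB1, and positive for ITGB4 (0.16), FN1 (0.096), ITGA5 (0.086) and ITGA3 (0.067). Of the 9 members below 50% GC, 8 were lower in both libraries than in the others of their group, with FN1 the exception, against 6 of the 23 at or above 50% GC. Across the 32 members the difference followed GC content with Pearson r = 0.725 and Spearman rho = 0.694, and across 11066 tested genes with r = 0.602. These are correlations across genes that share the same 6 libraries, and genes are not independent replicates. The part of GC content in these differences was not tested.

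**Figure D5:**
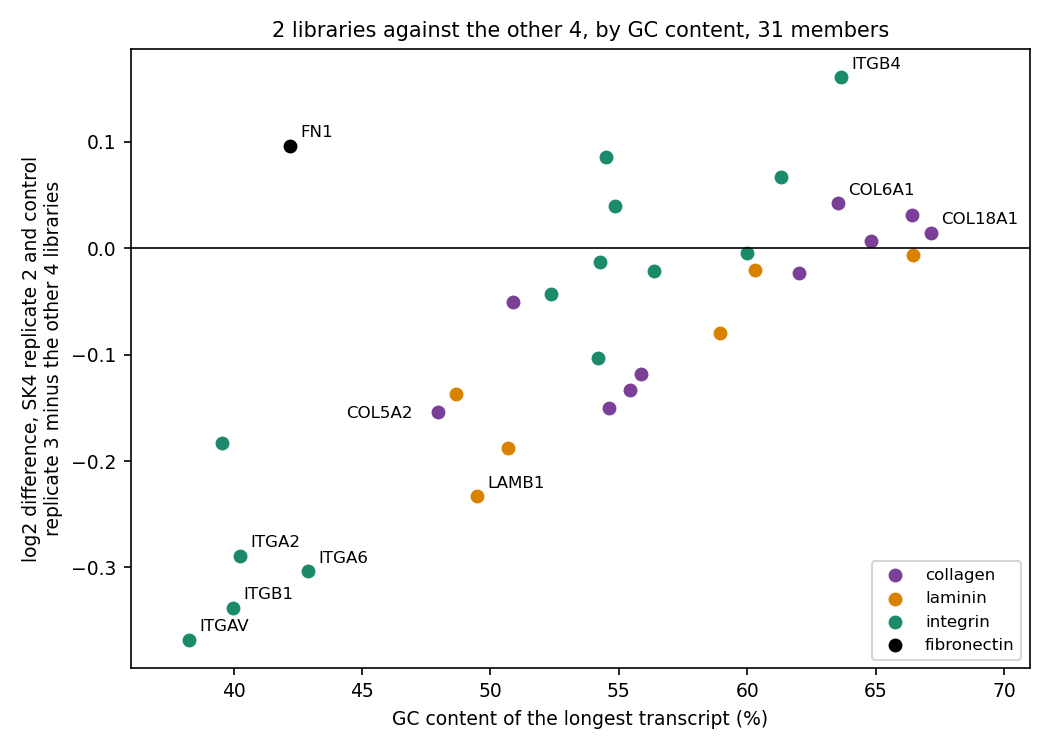
Log2 level in SK4 replicate 2 and control replicate 3 minus that in the other 4 libraries (y axis, mean over libraries) against the GC content of the longest transcript (x axis, %), for 31 of the 32 tested members, coloured by family. ITGAV, ITGB1, ITGA6 and ITGA2 sit at the lower left with differences of -0.37 to -0.29, and FN1 lies apart from them at 0.096.

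Without these 2 libraries no member was called either (0 of 32, limma). The log2 fold changes of the widely spread integrins were then -0.11 for ITGAV, -0.13 for ITGA6, -0.027 for ITGB1 and 0.0024 for ITGA2. After a correction of each library for GC content the counts were 0 at both thresholds.

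Genes that work beside the matrix and its receptors were likewise not called. Of 72 genes in 4 lists, 57 were tested, and 0 passed at an adjusted or an unadjusted p below 0.05 (limma), with 37 positive and 20 negative log2 fold changes and a median of 0.020. The basement membrane partners AGRN, HSPG2 and SPARC, 3 tested of 5, had a median of 0.027. AGRN, a heparan sulfate proteoglycan, held 37.9, 38.5 and 36.3 FPKM in SK4 and 38.7, 36.8 and 37.2 FPKM in control replicates 1 to 3. In the list of collagen synthesis and crosslinking, 21 of 27 were tested, with a median of 0.013. PCOLCE, an enhancer of procollagen C-proteinase, had the smallest p of these 57 genes, at 1.24, 1.29 and 1.40 FPKM in SK4 and 1.01, 1.07 and 1.19 FPKM in control replicates 1 to 3 (log2 fold change 0.19, limma, unadjusted p = 0.0687, adjusted p = 0.99997). Its groups did not overlap.

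The adhesion adaptors and kinases, 24 tested of 30, had a median log2 fold change of 0.014. FERMT1, which encodes the integrin activator kindlin-1, had the smallest p of that list at 3.05 ± 0.0964 FPKM in SK4 and 3.39 ± 0.407 FPKM in control libraries, and VCL, which encodes vinculin, held 10.1 ± 0.359 and 10.7 ± 0.745 FPKM in the same order (SD, n = 3 each). Both genes had overlapping groups. The other matrix receptors, 9 tested of 10, had a median of 0.041. DDR1, a receptor tyrosine kinase that binds collagen, held 12.4, 12.6 and 12.0 FPKM in SK4 and 11.6, 11.4 and 11.8 FPKM in control replicates 1 to 3 (log2 fold change 0.089, limma, unadjusted p = 0.0852, adjusted p = 0.99997), without overlap. PCOLCE and DDR1 were the 2 of 57 partner genes whose groups did not overlap, both with the SK4 values above, against 3.53% of all tested genes in that direction.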

How the data were processed

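RNA was measured in 6 libraries of BHT101 cells. Per the labels' protocols, polyadenylated RNA was captured, dUTP marking preserved strand, and reads were paired at 150 nt. Per the submitters' processing notes, HISAT2 and GRCh38 were used; the sources used here do not state the counting tool, gene lengths or annotation. FPKM values, rounded to 2 decimals, were deposited by the authors, 1 column per library. FPKM does not remove differences in how GC-rich transcripts are recovered.

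Depth was estimated from 561 single-exon genes under 160 nt, whose low values are multiples of 1 fragment (99.5% to 100.0% whole within 0.1 for values worth up to 5 fragments). Estimated fragments per member, 144 to 16629 in the lowest library of the tested genes, use the longest GENCODE transcript and give a counting CV of 0.776% to 8.34%, which covers counting error only.

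Genes reaching 1 FPKM in 3 or more libraries were compared on log2(FPKM + 0.5) with limma 3.58.1 in R 4.3.3 (trended, robust prior; group as the only term), with Benjamini-Hochberg adjustment over all 11139. Fold changes on this scale understate those of low genes. The fit was tested on simulated normal values drawn independently for each gene and library. Those values lacked the library differences that genes share in these data, so that test does not cover them. Chain ratios had no test. Annotation came from GENCODE 29 (79 of 79 members matched) and promoters from RefSeq, GRCh38.p14. Members, roles, partner and marker lists were chosen with earlier results of these data known. By the rule for named genes, every member could be named, with library values for the highest of each role and the 5 smallest p or largest changes; COL4A5, ITGB2 and members below the filter were added after their values were seen. Of the tested members, 1 entered every fit and count but is not reported here, and neither is 1 cell type marker.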

Additional observations from a re-analysis of the deposited data

How the results depend on the processing

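The count of called members was 0 under each of the 17 alternatives, which covered the pseudocount, the filter, the scaling, the prior variance, library weights, the replicate number as a term, GC content and leaving out libraries. The smallest adjusted p of any member was 0.609 (limma, ITGA6 with library weights). KCNN4 kept a log2 fold change of 4.16 to 4.33 and its call throughout. Members with an unadjusted p below 0.05 numbered 2 with library weights and 1 without control replicate 3 and SK4 replicate 2. They numbered 0 to 1 when single libraries were left out. Called genes over the whole table numbered 4 without those 2 libraries, 3 higher and 1 lower, against 1 with all 6. The cause was not tested. The members' median log2 fold change ran from -0.037 with library weights to 0.048 without control replicate 1, so its sign depended on the setting. Of the 32 members, 12 kept the sign of their fold change under every alternative that tested them. Libraries with the same replicate number were not the most alike, which does not show whether they were handled as pairs. Deviations of same-numbered libraries correlated at 0.306, -0.410 and -0.154, against 0.528 for SK4 replicate 2 with control replicate 3. With the replicate block 1 gene and 0 members were called. The GC correction and the fit without 2 libraries were chosen after seeing the data. Control replicate 3 was the shallowest library, and members below 0.1 FPKM rest on few fragments, which limits the precision of their values.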
